A study of Oryctolagus cuniculus with 34 samples.

Results

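The provisional and matricellular matrix of rabbit shoulder muscle was followed through 9 genes, FN1, VCAN, TNC, POSTN, THBS1, THBS2, SPARC, CTHRC1 and FAP. They are 9 of the 18176 genes counted in the files, and all 9 were present. They were chosen by name as genes of the matricellular and provisional matrix, with no threshold on their values. Earlier results of these data were known by then, so counts of the 9 set beside shares of all genes are a description.

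A provisional matrix is the loose scaffold laid down early in a wound, before dense collagen replaces it. Fibronectin (FN1) and the hyaluronan-binding proteoglycan versican (VCAN) are among its structural parts. Matricellular proteins sit in the matrix without bearing load and change how cells attach, migrate and signal. In adult muscle and tendon most of them are low at rest and are known to be raised by injury, largely in activated fibroblasts.

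RNA of whole pieces of supraspinatus, which lifts the arm and belongs to the rotator cuff, was sequenced in 34 rabbit libraries. In the long term, 5 muscles had been given a repair with a gel made from extracellular matrix of tissue, 5 a repair only, and 10 were uninjured. In the short term, 5 muscles had been given the gel with the repair, 5 a repair only, and 4 had the injury only. The labels give neither the length of either term nor strain, age or sex, and no group of uninjured muscle belongs to the short term, nor one of injury only to the long term.

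Values are CPM, the counts of a gene per 1e6 counts of its library, scaled by the trimmed mean of M-values over all 34 libraries. Library totals were 12582302 to 15019158 counts in the long term and 26904529 to 32313295 in the short term. Muscle fibre markers, 6 of 10 listed genes being in the files, summed to between 33085 and 276122 CPM in every library, which matches the labelled tissue. Gene lengths were not used, so a level is compared only within a gene. In bulk tissue fewer cells of a type and less RNA per cell cannot be told apart. The labels do not state whether replicates are separate animals. Codes in the names of the deposited files differ between the libraries of each group and are read here as animals; if they are not, p-values measure only the spread between these samples.

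Over all genes, 4 libraries were least like their own groups. Short-term repair replicate 4 had a mean Spearman correlation of 0.894 with its own group and 0.958 with the injury group. Short-term injury replicate 3 had one of 0.917 with its own group, 0.931 with the repair group and 0.935 with the gel group. Short-term repair replicate 5 had 0.905 with its own group, 0.899 with the gel group and 0.864 with the injury group, and long-term gel replicate 1 had 0.911 with its own group. Whether the labels of repair replicate 4 and injury replicate 3 were exchanged was not tested. If they were, every short-term summary and comparison that uses the repair or injury group would change. Results are given with all libraries, without repair replicate 4, injury replicate 3 and long-term gel replicate 1, and without all 4. In the short term, the first of these exclusions takes out the libraries that looked like another group and keeps the highest one. It thus widens the short-term contrasts by construction. Long-term gel replicate 1 was not more like another group (0.903 with repair only and 0.906 with uninjured muscle). Calls made under either exclusion describe the libraries left and are no independent test.

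The 9 genes were highest in the repaired muscles of the short term. They took a median of 0.219% of all counts with the gel (0.125% to 0.52%), 0.486% with repair only (0.0339% to 2.97%) and 0.0635% with the injury only (0.044% to 0.574%). In the long term these shares were 0.0559% with the gel (0.0376% to 0.0604%), 0.0861% with repair only (0.062% to 0.119%) and 0.0547% in uninjured muscle (0.0236% to 0.0883%). SPARC made up the larger part of the share in every library. It took 0.303% of the 0.486% in short-term repair replicate 2 and 1.87% of the 2.97% in replicate 5. By geometric mean, short-term repair stood first and the short-term gel next for 9 of 9 genes. Neighbours in that order overlapped in every case, so no single step of it exceeded the spread between libraries.

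**Figure D1:**
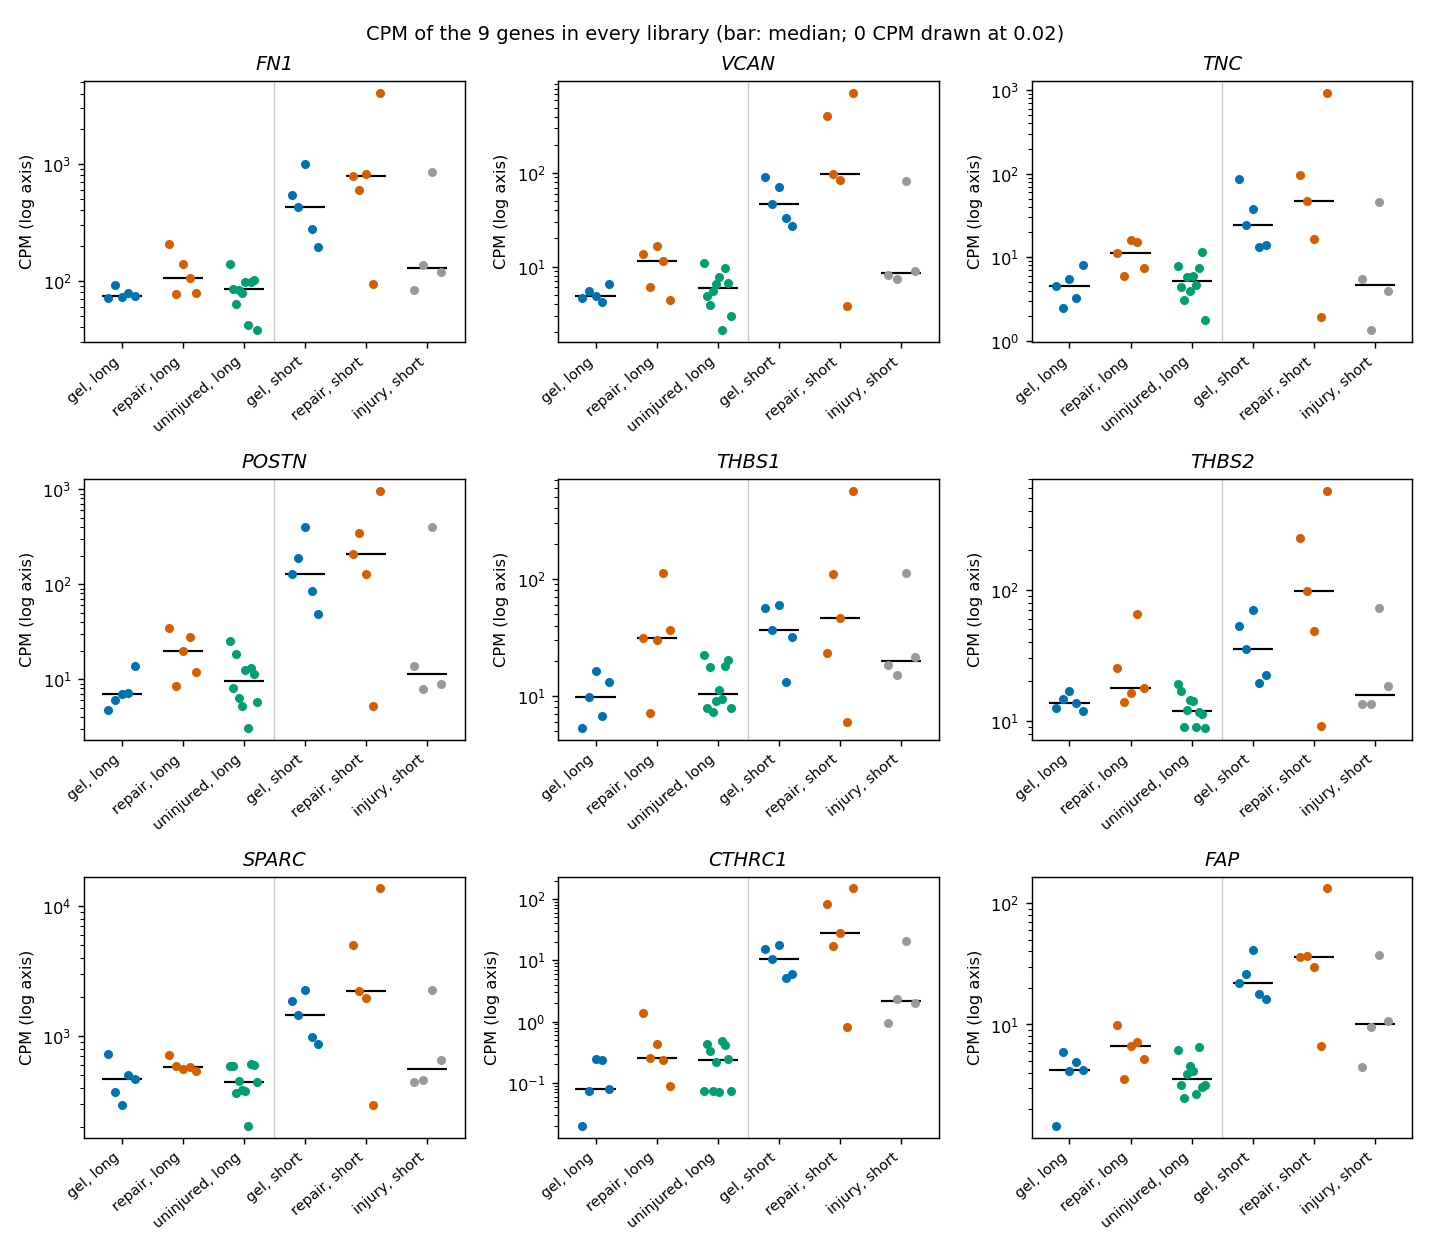
CPM on a log axis for the 9 genes, with 1 point per library, groups on the x axis (long term left, short term right) and a bar at each group's median; the 1 library with 0 CPM, for CTHRC1, is drawn at 0.02. In the short term, repair replicate 5 is the highest point in 9 of 9 panels and repair replicate 4 the lowest of its group in 9 of 9.

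Structural genes of the provisional matrix varied most between libraries of short-term repair. FN1 had 544.1, 428.3, 1001.3, 275.2 and 194.3 CPM in short-term gel replicates 1 to 5, against 796.7, 598.2, 813.3, 93.3 and 4059.1 CPM in the repair replicates and 83.7, 136.7, 848.1 and 119.1 CPM in the injury replicates. VCAN had 91.4, 46.3, 71.5, 33.1 and 27.0 CPM with the gel, against 406.6, 96.6, 85.0, 3.76 and 718.7 CPM with repair only and 8.04, 7.43, 81.9 and 8.92 CPM with the injury only. For both genes the 3 groups overlapped: repair replicate 4 lay among the low injury libraries for FN1 and below all 4 injury libraries for VCAN, and injury replicate 3 lay among the gel and repair libraries.

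TNC and POSTN encode matricellular proteins that are linked to cell migration. TNC, for tenascin C, an anti-adhesive protein of healing tendon and muscle, had 87.2, 24.5, 38.2, 13.1 and 14.2 CPM with the gel, against 95.5, 47.2, 16.7, 1.94 and 927.0 CPM with repair only and 5.48, 1.34, 45.3 and 3.92 CPM with the injury only. POSTN encodes periostin, which binds integrins and aids collagen assembly, and had 127.0, 188.8, 402.0, 84.0 and 48.7 CPM with the gel, against 205.7, 348.7, 127.0, 5.2 and 966.0 CPM with repair only and 13.9, 7.94, 403.1 and 8.99 CPM with the injury only. In injury replicate 3 POSTN was thus as high as in the highest gel library, while the other injury libraries lay below every gel library.

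The thrombospondins THBS1, an activator of latent TGF-beta, and THBS2, an inhibitor of blood vessel growth, were both highest in repair replicate 5. THBS1 had 56.0, 36.4, 59.6, 13.1 and 32.0 CPM with the gel, against 23.4, 110.0, 46.4, 5.99 and 566.9 CPM with repair only and 18.5, 15, 113.3 and 21.6 CPM with the injury only. THBS2 had 53.4, 35.6, 69.6, 19.5 and 22.5 CPM with the gel, against 248.7, 97.7, 48.3, 9.21 and 570.0 CPM with repair only and 13.4, 13.4, 72.6 and 18.4 CPM with the injury only. THBS1 was the gene for which the gel and injury groups differed least.

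SPARC encodes a collagen-binding protein also called osteonectin, and had 1860.6, 1470.9, 2260.7, 994.4 and 870.9 CPM with the gel, against 5024.7, 2244.9, 1956.0, 293.9 and 13678.5 CPM with repair only and 446.4, 461.8, 2253.7 and 659.3 CPM with the injury only. CTHRC1, a secreted protein of activated fibroblasts with a collagen triple helix repeat, had 15.1, 10.5, 17.7, 5.18 and 5.99 CPM with the gel, against 82.2, 16.9, 27.4, 0.826 and 148.2 CPM with repair only and 0.941, 2.35, 21.0 and 1.98 CPM with the injury only. FAP, a cell surface protease of activated fibroblasts, had 22, 26.1, 41.4, 17.7 and 16.2 CPM with the gel, against 36.3, 37.0, 29.9, 6.69 and 132.2 CPM with repair only and 4.45, 9.45, 37.2 and 10.7 CPM with the injury only. All 3 genes showed the same split of libraries as FN1 and VCAN, with repair replicate 4 low and injury replicate 3 high.

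**Figure D2:**
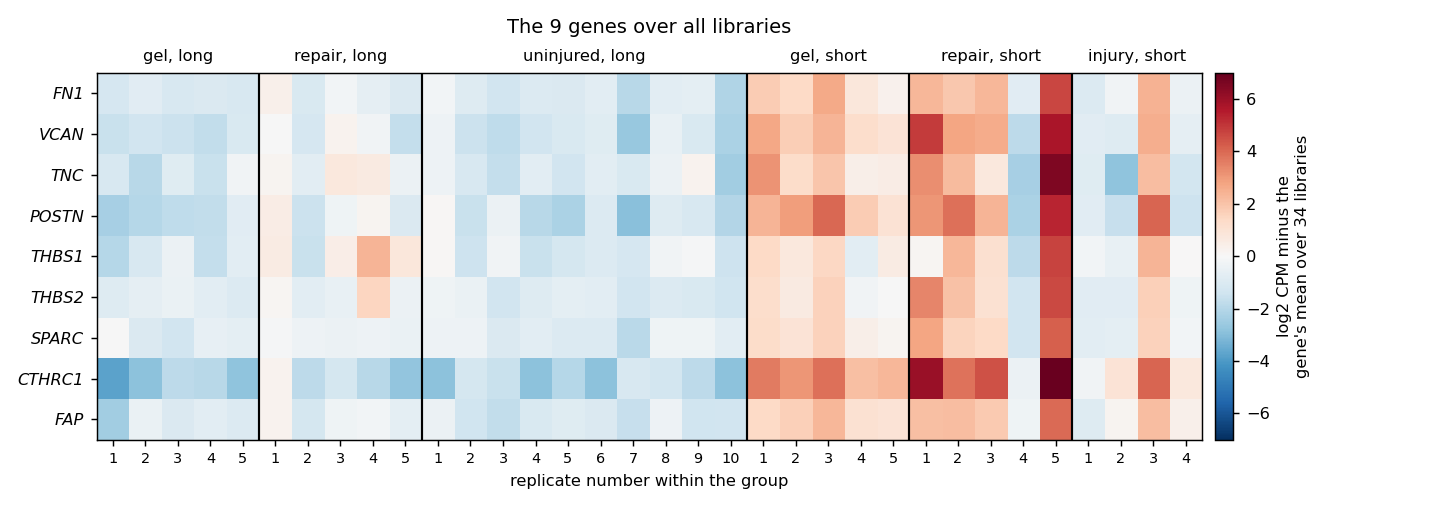
Colour shows the log2 CPM of each gene (rows) in each library (columns, by group and replicate) minus that gene's mean over the 34 libraries, on a scale from -7 to 7. The columns of short-term repair replicate 5 and injury replicate 3 are high for all 9 genes, and that of repair replicate 4 is the lowest of its group for all 9.

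Repair only was set against the injury only in the short term, which asks what the repair adds to the injury. The fitted log2 difference was above 0 for 9 of 9 genes, against 51.7% of all 13526 genes tested, with a median of 2.27 (0.02 over all genes). The largest were those of TNC (3.94, SE 1.54), VCAN (3.28, SE 1.17) and CTHRC1 (3.03, SE 1.16), and the smallest that of POSTN (1.58, SE 1.32). None of the 9 passed edgeR's quasi-likelihood test (adjusted p 0.322 to 0.524), nor did any gene in either direction (0.0%). At an unadjusted p under 0.05, 7 of the 9 were higher, against 9.5% of all genes, and DESeq2 called 1, VCAN (higher calls over all genes 1.42%). Leaving out repair replicate 5 lowered all 9 differences, to between 0.10 for THBS1 and 2.42 for VCAN.

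Without repair replicate 4 and injury replicate 3, the contrast was larger for every one of the 9 genes. The log2 differences then ran from 2.77 (FAP, SE 0.57) to 6.17 (TNC, SE 1.46) with a median of 3.93, and edgeR called 9 of 9 higher, against 17.0% of all genes. Without repair replicate 5 as well, they ran from 1.65 (THBS1, SE 0.58) to 4.52 (VCAN, SE 0.67) with a median of 3.06, and edgeR called 8 of 9 higher, all but THBS1, against 13.2% of all genes. CTHRC1 then lay at 4.51 (SE 0.70), POSTN at 4.41 (SE 0.74), TNC at 3.82 (SE 0.87) and FN1 at 2.64 (SE 0.51). With all libraries kept, limma voom with sample quality weights called 8 of 9, all but THBS1, against 17.9% of all genes higher. Such weights count a library far from its group less, so these calls are not independent of those under the exclusions. With all 34 libraries in one edgeR fit 5 of 9 were called (CTHRC1, SPARC, THBS2, TNC and VCAN), against 3.86% of all genes higher. In that fit the long-term groups share the estimate of the spread.

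The gel with the repair was set against the injury only in the same way. With all libraries, 8 of 9 differences were above 0, against 51.9% of all genes, with a median of 0.70, and THBS1 lay at -0.07 (SE 1.01). None passed edgeR's test (adjusted p 0.631 to 0.980, and 0.0% of all genes), and 0 of 9 had an unadjusted p under 0.05, against 9.83% of all genes higher. With sample quality weights limma voom called 5 of 9, FAP, FN1, POSTN, SPARC and VCAN, against 14.3% of all genes higher. These calls are again not independent of those under the exclusions. Without injury replicate 3 and repair replicate 4 the median was 2.09 and edgeR called 3 of 9 higher, against 8.42% of all genes, POSTN (4.03, SE 0.84), VCAN (2.71, SE 0.70) and CTHRC1 (2.61, SE 0.73). Without repair replicate 5 as well, which leaves the gel and injury libraries as they were and changes the shared estimate of the spread, the median was again 2.09 and edgeR called 7 of 9 higher, all but THBS1 and THBS2, against 11.9% of all genes.

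The gel with the repair was then set against repair only in the short term. All 9 differences were below 0, against 54.3% of all genes, with a median of -1.90 (-0.04 over all genes). They ran from -2.59 for TNC (SE 1.32) to -0.92 for POSTN (SE 1.2), with THBS2 at -2.24 (SE 0.86), CTHRC1 at -2.30 (SE 1.03) and SPARC at -1.60 (SE 0.78). None passed edgeR's test (adjusted p 0.427 to 0.803), and 0.0% of all genes did. THBS2, CTHRC1 and VCAN, 3 of 9, had an unadjusted p under 0.05, against 4.73% of all genes lower. Of the 9, DESeq2 called 0 (0.251% of all genes lower) and limma voom 0 (0.00739%).

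One library carried much of this difference. Without repair replicate 5 it was 0.03 for POSTN, -0.11 for FAP, -0.14 for TNC, -0.19 for FN1 and -0.20 for THBS1, and stayed past -1 for VCAN (-1.40), CTHRC1 (-1.49) and THBS2 (-1.28). Without repair replicate 4 and injury replicate 3 the median was -2.19, the lowest adjusted p by edgeR's test was 0.0778, and 0 of 9 were called (lower calls over all genes 0.0732%). Without all 3 of these short-term libraries the median was -0.56, with CTHRC1 at -1.90 (SE 0.52), VCAN at -1.81 (SE 0.50) and THBS2 at -1.66 (SE 0.49), and again 0 of 9 were called (0.0221%). With all libraries kept, the gel and repair groups overlapped for 9 of 9 genes, where 1.53% of all genes were apart and lower.

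**Figure D3:**
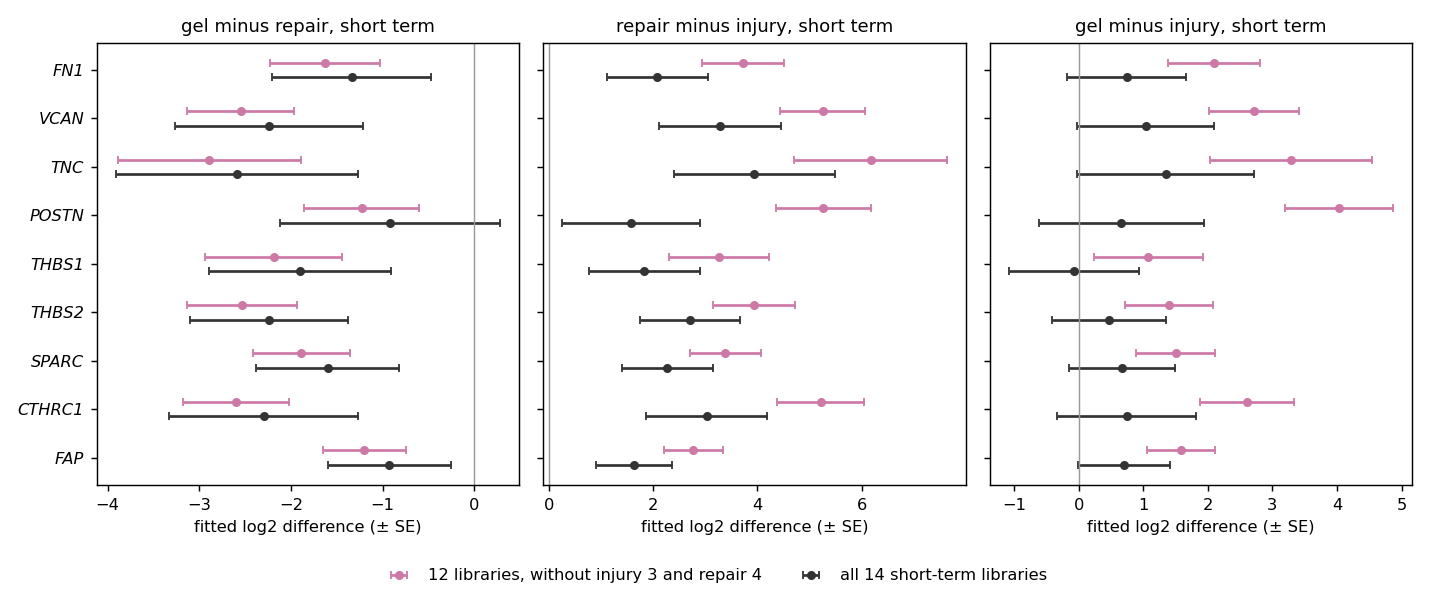
Fitted log2 differences with their SE (x axis) for the 9 genes (y axis) in the 3 short-term comparisons, without repair replicate 4 and injury replicate 3 (pink) and over all 14 libraries (black). Leaving the 2 libraries out makes every difference from the injury group higher, by most for POSTN (5.26 instead of 1.58 for repair only), and every difference of gel minus repair lower.

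Marker lists of the cell types that could carry these genes differed across the same libraries. The summed level of 14 of 14 activated fibroblast markers was 3320.8 to 11114.9 CPM with the gel, 808.1 to 89492.3 CPM with repair only and 1025.6 to 7508.2 CPM with the injury only. The summed level of 7 macrophage markers present, of 12 listed, was 54.9 to 267.9 CPM, 15.8 to 278.3 CPM and 16.2 to 102.5 CPM in the same 3 groups. Tenocyte markers (7 of 9 present) summed to 212.0 to 382.4 CPM, 101.4 to 1190.2 CPM and 77.2 to 1168.1 CPM. Platelet markers, for cells that carry much THBS1, summed to no more than 19.3 CPM in any short-term library, with 6 of 7 present and PPBP, GP9 and TREML1 at 0 in every injury library. For repair only against the injury, 14 of 14 activated fibroblast markers (median log2 difference 2.70), 7 of 7 macrophage markers (1.74) and 8 of 8 cell cycle genes (2.77) were above 0, while 0 of 6 muscle fibre markers (-1.19) and 0 of 6 adipocyte markers (-1.64) were. In the same comparison fibro-adipogenic markers were above 0 for 8 of 9 genes (1.0) and tenocyte markers for 4 of 7 (0.45). Endothelial markers were above 0 for 3 of 7 (-0.02), and smooth muscle and pericyte markers for 4 of 6 (0.16). Of all genes, 51.7% were above 0. For the gel against repair only, 13 of 14 activated fibroblast markers (median log2 difference -1.86) and 9 of 9 fibro-adipogenic markers (-0.83) were below 0. So were 7 of 7 tenocyte markers (-1.18), 4 of 7 macrophage markers (-0.14) and 4 of 6 adipocyte markers (-0.11), against 54.3% of all genes. Muscle fibre markers summed to 70278.1 to 154595.3 CPM with the gel, 33085.0 to 226319.0 CPM with repair only and 42951.4 to 276122.4 CPM with the injury only. The part of these cell types in the results was not tested.

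In the long term the levels were lower and the repair group still stood highest. FN1 had 71.3, 91.6, 73.3, 78.2 and 74.1 CPM with the gel, against 207.7, 77.6, 140.6, 104.7 and 79.0 CPM with repair only and 37.8 to 140.5 CPM (median 84.5) in uninjured muscle. POSTN had 4.71, 6.09, 7.0, 7.22 and 13.9 CPM in gel-treated muscle, against 34.4, 8.53, 19.8, 28.1 and 11.9 CPM with repair only and 3.06 to 25.4 CPM (median 9.68) in uninjured muscle. TNC had 2.47 to 8.18 CPM (median 4.50) with the gel, 5.91 to 16.3 CPM (median 11.1) with repair only and 1.78 to 11.7 CPM (median 5.23) in uninjured muscle. The 3 groups overlapped for these genes, and repair replicates 1, 3 and 4 were the high ones.

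THBS1 had 5.34, 9.79, 16.4, 6.82 and 13.1 CPM with the gel, against 31.6, 7.18, 30.1, 111.9 and 36.7 CPM with repair only and 7.26 to 22.4 CPM (median 10.3) in uninjured muscle. THBS2 had 12.5, 14.8, 16.8, 13.7 and 12 CPM with the gel, against 25.2, 13.9, 16.3, 65.1 and 17.7 CPM with repair only and 8.83 to 19.0 CPM (median 11.9) in uninjured muscle. Repair replicate 4 was far above the rest for both thrombospondins. For THBS2, repair replicates 2, 3 and 5 lay within the uninjured range. For THBS1, repair replicate 2 lay just below it.

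VCAN had 4.16 to 6.48 CPM with the gel, 4.36 to 16.7 CPM with repair only and 2.09 to 10.9 CPM in uninjured muscle, with repair replicates 1, 3 and 4 high again. SPARC had 298.9 to 728.3 CPM with the gel, 541.5 to 720.0 CPM with repair only and 205.2 to 615.9 CPM in uninjured muscle, the narrowest relative range of the 9 genes in the repair group. FAP had 1.46 to 5.95 CPM, 3.55 to 9.82 CPM and 2.49 to 6.47 CPM in the same order of groups. CTHRC1 was near its detection limit, with 0 to 3 counts per library with the gel, 1 to 21 with repair only and 1 to 6 in uninjured muscle, and was left out of the long-term fit by the filter on low counts. Its 0 counts in gel replicate 1 allow up to 0.314 CPM, from 3 counts and for counting error only.

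Long-term repair was set against uninjured muscle. All 8 genes tested had a difference above 0, against 50% of all 11605 genes, with a median of 0.88. By edgeR's test 2 of 8 rose, against 0.965% of all genes. THBS1 averaged 43.5 ± 39.9 CPM with repair only and 13.1 ± 5.85 CPM in uninjured muscle (SD, n = 5 and 10), a log2 difference of 1.75 (SE 0.41, edgeR adjusted p 0.0374). THBS2 averaged 27.7 ± 21.4 CPM with repair only and 12.6 ± 3.48 CPM in uninjured muscle (SD, n = 5 and 10), a log2 difference of 1.15 (SE 0.27, edgeR adjusted p 0.0424). The other 6 genes lay between 0.39 for SPARC (SE 0.22) and 1.01 for TNC (SE 0.33), and 7 of 8 had an unadjusted p under 0.05, against 7.85% of all genes higher.

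These 2 calls did not hold in most fits with 1 library fewer. When each of 15 libraries was left out in turn, THBS1 passed in 5 fits and THBS2 in 4, and without repair replicate 4 their log2 differences were 1.03 and 0.56. Animal codes in the names of the deposited files tie each operated long-term muscle to an uninjured one, and with the animal as a block over those 5 pairs the differences were 1.32 for THBS1 (edgeR adjusted p 0.367) and 0.75 for THBS2 (edgeR adjusted p 0.477). Over the same 5 pairs without the block they were 1.67 and 0.99 (edgeR adjusted p 0.576 and 0.589).

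**Figure D4:**
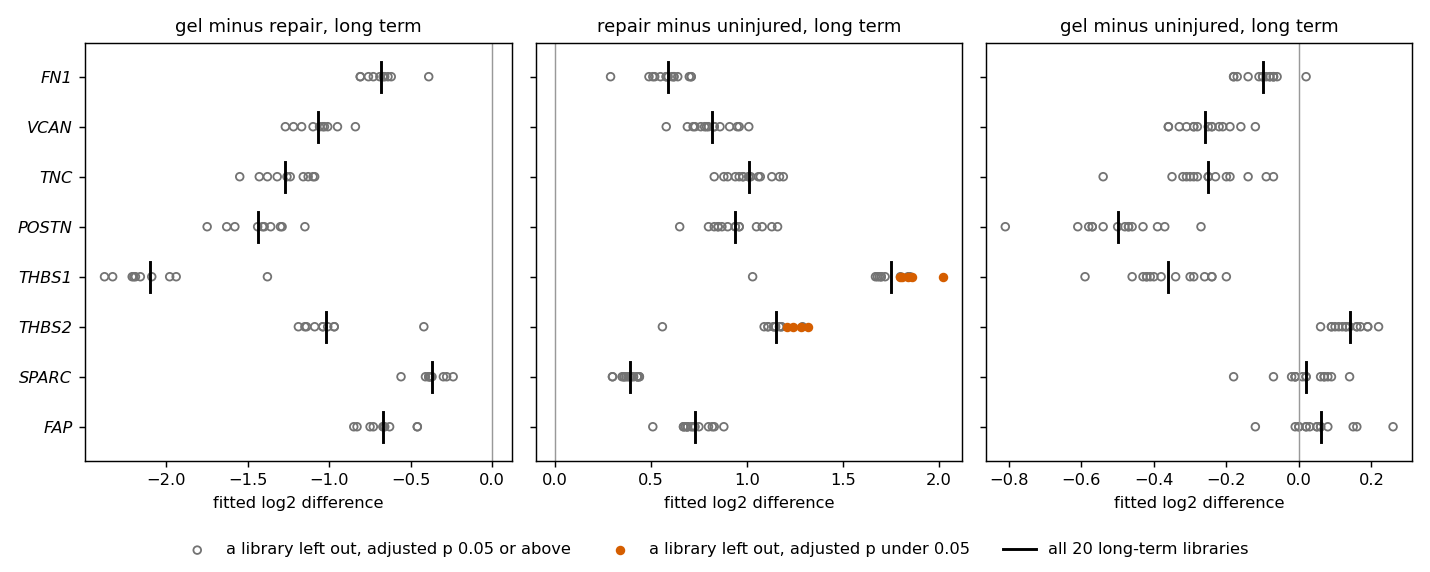
Fitted log2 differences (x axis) of 8 genes (y axis) in the 3 long-term comparisons, over all 20 libraries (black line) and with each library left out in turn (circles, filled in orange where the edgeR adjusted p was under 0.05). Filled circles appear for THBS1 and THBS2 in repair minus uninjured, and the lowest circles of both genes there, 1.03 and 0.56, lack repair replicate 4.

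Animal by animal, the repair group was uneven. The operated muscle was higher than the uninjured one of the same code for 8 of 8 genes in repair replicates 1, 3 and 4, with median ratios of 1.39, 2.19 and 4.42. The partner of repair replicate 4 was uninjured replicate 7, the lowest uninjured library for VCAN, POSTN and SPARC. FN1 also had its highest ratio there (2.52), from 104.7 CPM over 41.5 CPM, where uninjured muscle ranged from 37.8 to 140.5 CPM. In repair replicates 2 and 5 the operated muscle was higher for 4 of 8, with median ratios of 1.02 and 0.981. POSTN and FAP were higher in 5 of 5 operated muscles, with ratios of 1.05 to 9.19 for POSTN and 1.13 to 2.70 for FAP. THBS1 was higher in 4 of 5, with ratios of 0.914 to 11.8, and SPARC in 3 of 5, with ratios of 0.901 to 2.85. The share of all genes higher in the same pairs was not counted, and the genes of an animal share its libraries. These counts therefore describe the pairs and were not tested.

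The gel with the repair was also set against uninjured muscle in the long term. Of 8 genes, 3 were above 0 and 5 below, against 49.1% of all genes above 0, with a median of -0.18. The differences ran from -0.50 for POSTN (SE 0.42) to 0.14 for THBS2 (SE 0.29), and none passed edgeR's test (adjusted p 0.572 to 0.975), against 0.00862% of all genes higher and 0.0% lower. Of the 8 genes, 0 had an unadjusted p under 0.05 (8.94% of all genes higher and 4.9% lower), and DESeq2 called 0 (0.0776% higher and 0.0689% lower). By animal code, again without the share over all genes, THBS2 was higher in 5 of 5 gel-treated muscles, with ratios of 1.17 to 1.39. POSTN was higher in 1 of 5. Gel replicate 5, whose partner was the lowest uninjured library for FN1, TNC and THBS2, was higher for 8 of 8 genes (median ratio 1.81) and gel replicate 4 for 1 of 8 (0.651).

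**Figure D5:**
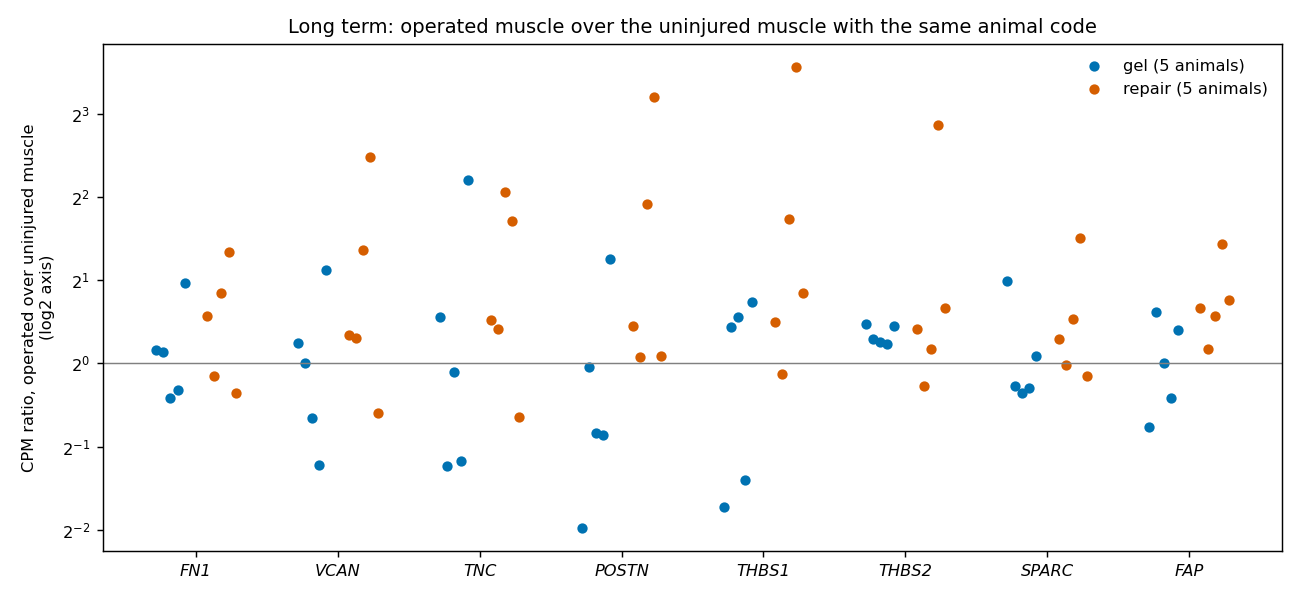
CPM of the operated long-term muscle over that of the uninjured muscle with the same animal code, on a log2 axis, for 8 genes with 1 point per animal (gel in blue, 5 animals; repair only in orange, 5 animals). The highest orange point is repair replicate 4 for 7 of the 8 genes, all but TNC, and the blue points of THBS2 all lie above 1.

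The gel with the repair was set against repair only in the long term. All 8 genes had a difference below 0, against 53.7% of all genes, with a median of -1.05 (-0.03 over all genes). THBS1 lay at -2.10 (SE 0.51), POSTN at -1.44 (SE 0.48), TNC at -1.27 (SE 0.40), VCAN at -1.07 (SE 0.39) and THBS2 at -1.02 (SE 0.33). None passed edgeR's test (adjusted p 0.302 to 0.479, and 0.0% of all genes), while 6 of 8 had an unadjusted p under 0.05, against 6.32% of all genes lower. DESeq2 called THBS1 (-2.09, DESeq2 adjusted p 0.0314), 1 of 8 against 0.0517% of all genes lower. Without repair replicate 4, THBS1 was -1.38 and THBS2 -0.42. Without gel replicate 1 THBS1 was -1.94 (SE 0.57, edgeR adjusted p 0.493). This comparison and the one of repair with uninjured muscle share the 5 repair libraries.

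Between terms, the 9 genes were lower in the long term under both treatments. The term also differs in depth, and the labels name no batch, so term and any batch of it cannot be told apart. Gel-treated muscles fell for 9 of 9 genes, against 26.5% of all 12935 genes, with a median log2 difference of -2.67 (-0.09 over all genes). The largest fall was that of CTHRC1 (-6.33, SE 1.12, edgeR adjusted p 3.67e-05), whose size rests on 0 to 3 counts per long-term library, followed by POSTN (-4.46, SE 1.00, edgeR adjusted p 0.000572) and VCAN (-3.41, SE 0.79, edgeR adjusted p 0.00076). The smallest were those of SPARC (-1.67, SE 0.55, edgeR adjusted p 0.0126) and THBS2 (-1.54, SE 0.62, edgeR adjusted p 0.0393). The long-term and short-term gel libraries did not overlap for 8 of 9 genes, against 17.0% of all genes lower, and THBS1 overlapped. Without repair replicate 4, injury replicate 3 and gel replicate 1, 9 of 9 were called lower, against 31.7% of all genes. With 1 library left out, 6 to 9 genes were past the threshold, THBS2 in 3 of 10 fits and THBS1 in 5 of 10.

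Muscles with repair only fell for 8 of 9 genes, against 27.9% of all genes, with a median of -3.38 (-0.11 over all genes). CTHRC1 lay at -6.75 (SE 0.97, edgeR adjusted p 2.61e-06), VCAN at -4.63 (SE 0.82, edgeR adjusted p 4.6e-05) and TNC at -4.27 (SE 0.99, edgeR adjusted p 0.000933). THBS1 missed the threshold at -1.79 (SE 0.76, edgeR adjusted p 0.0515). Without short-term repair replicate 5 it lay at -0.08 and TNC at -1.82 (edgeR adjusted p 0.0572), and 7 of 9 passed. Without repair replicate 4, injury replicate 3 and gel replicate 1, edgeR called 9 of 9 lower, against 34% of all genes, with THBS1 at -2.10 (SE 0.65). Without repair replicate 5 as well it called 8 of 9 lower, against 29.7% of all genes, with THBS1 at -0.45 (SE 0.56). With all libraries kept the groups overlapped for 9 of 9 genes, where 11.8% of all genes were apart and lower.

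Whether the gel difference changed between terms was tested directly. The difference of differences was above 0 for 7 of 9 genes, against 55.5% of all genes, with a median of 0.71, and ran from -0.46 for POSTN (SE 1.23) to 1.37 for TNC (SE 1.27). None passed edgeR's test (adjusted p 0.484 to 0.969, against 0.00773% of all genes in each direction), 0 had an unadjusted p under 0.05 (8.02% of all genes higher and 4.71% lower), and DESeq2 called 0 of 9 (0.116% higher and 0.101% lower). Without repair replicate 4, injury replicate 3 and gel replicate 1, 8 of 9 were above 0 with a median of 1.04 (0.04 over all genes). In that fit edgeR called 0 of 9, with a lowest adjusted p of 0.201 (0.0153% of all genes higher and 0.0612% lower). An unadjusted p under 0.05 by edgeR was reached by 3 of 9, a count that cannot be weighed without its share over all genes in that fit. Without short-term repair replicate 5 alone, 3 of 9 were above 0. Without all 4 libraries 5 of 9 were, with a median of 0.01 (-0.01 over all genes).

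Genes that act with the 9 were read from lists of the same pathway. In the short-term comparisons edgeR called 0 genes of any list, where it called 0.0% of all genes in either direction. The hyaluronan synthase gene HAS2, whose product versican binds, lay at -2.05 (SE 0.72, edgeR adjusted p 0.413) for the gel against repair only and at 3.07 (SE 0.83, edgeR adjusted p 0.322) for repair only against the injury. PLAU, the urokinase that activates plasminogen, lay at 2.24 (SE 0.61, edgeR adjusted p 0.322) for repair only against the injury.

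Of all genes, 26.5% fell and 21.8% rose between terms with the gel, and 27.9% fell and 18.2% rose with repair only, and the list counts are to be read against these shares. Of 12 proteases that cut versican or fibronectin, 9 fell between terms with the gel, among them MMP14 (-2.58, SE 0.61, edgeR adjusted p 0.00095), a collagenase of the cell surface, and 9 fell with repair only, among them PLAT (-3.95, SE 0.77, edgeR adjusted p 0.000144), the tissue plasminogen activator. Of 15 other matricellular genes tested, 10 fell with the gel, and 11 fell and 1 rose with repair only; FBN2, a fibrillin, fell most in both (-6.26, SE 1.33, with the gel and -6.68, SE 1.19, with repair only). Of 14 receptors, 4 fell with the gel, and 5 fell and 2 rose with repair only, near the shares of all genes. ITGA4, an integrin subunit that binds fibronectin, fell in both (-3.53, SE 0.81, with the gel and -3.49, SE 0.76, with repair only), and the thrombospondin receptor CD36 rose with repair only (1.55, SE 0.36). Of 5 genes of hyaluronan and its binding, 3 fell with the gel and 4 with repair only, HAS2 among both (-2.09, SE 0.59, with the gel and -3.39, SE 0.58, with repair only). Of 11 genes of TGF-beta activation, 4 fell and 1 rose with the gel, and 5 fell with repair only, against the same shares. Of 14 activated fibroblast markers, 12 fell with the gel and 14 with repair only, and of 7 macrophage markers 7 fell with the gel and 6 with repair only.

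In long-term repair against uninjured muscle, where 0.965% of all genes rose, 1 of 12 other matricellular genes rose, THBS4 (1.67, SE 0.40, edgeR adjusted p 0.0433), a thrombospondin of tendon and muscle. Of 11 TGF-beta genes 2 rose, LTBP2 (1.22, SE 0.26) and the receptor TGFBR2 (0.85, SE 0.17), and of 13 activated fibroblast markers 2 rose, COL12A1 (1.93, SE 0.40) and LOX (1.43, SE 0.30). Tenocyte markers rose for 4 of 5 genes tested, among them FMOD (3.74, SE 0.83) and KERA (2.92, SE 0.58), THBS4 being counted in that list too. Their summed level was 64.2 to 198.2 CPM with the gel, 54.2 to 821.3 CPM with repair only and 41.6 to 455.1 CPM in uninjured muscle. Adipocyte markers rose for 4 of 6. In the long-term comparison of the gel with repair only, edgeR called 0 genes of any list, and 0.0% of all genes. Against uninjured muscle it also called 0 genes of any list (0.00862% of all genes higher and 0.0% lower). For the gel against repair only, 5 of 5 tenocyte markers (median log2 difference -2.16) and 6 of 6 adipocyte markers (-1.07) were below 0. So were 11 of 13 activated fibroblast markers (-0.58) and 1 of 6 muscle fibre markers (0.53), against 53.7% of all genes. The part of tendon or fat in the THBS1 and THBS2 values was not tested.

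The genes most like the 9 were sought by Spearman correlation with the mean of their standardised log2 CPM, as a description of libraries that share treatment and composition. Over the 14 short-term libraries FAM114A1 and MAP4K4 came first (0.996 each). ANTXR1, CNN3, ITPRIPL2, PARVA and RRBP1 followed (0.991 each), then the collagen gene COL12A1, STAT6 and TSPAN6 (0.987 each). Over the 20 long-term libraries, with 8 genes in the mean, CD44, a hyaluronan receptor, came first (0.889). SYBU (0.86), ANXA5 (0.857), PRC1 (0.856, at most 1.68 CPM) and FRMD6 (0.845) followed. The rest of the first 10 were CTSK (0.844), SNAI2 (0.844), ANXA1 (0.842), GABPB2 (0.839) and IGF1 (0.838).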

How the data were processed

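RNA of rabbit supraspinatus muscle was extracted and made into 34 libraries by a commercial provider, according to the labels' protocols. What the authors deposited are unnormalised counts of reads for each gene. The submitters' processing notes list STAR, edgeR and OryCun2.0, without versions; annotation, counting tool and strand handling were not given. FN1, TNC, SPARC and FAP each overlap a pseudogene or non-coding gene in another rabbit assembly (mOryCun1.1), whose reads cannot be told apart.

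Each file held 18210 entries. In 1 file some gene names had become dates; the 26 names concerned were dropped throughout, which removed no more than 0.163% of any library. Another 15 entries, of 7 repeated symbols, were added up per symbol. No 2 libraries of a group were identical (91 pairs; smallest chi-square per degree of freedom 9.86).

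The main test was edgeR's quasi-likelihood test (version 4.0.16 under R 4.3.3; trimmed mean of M-values, low counts filtered by filterByExpr, robust fit), checked on simulated counts; DESeq2 1.42.0 and limma 3.58.1 served as alternatives. The 14 short-term libraries, the 20 long-term ones and, between terms, all 34 were fitted with group as the only term. Tests are 2-sided, adjusted by Benjamini-Hochberg over all genes, with a threshold of 0.05. Log2 differences are fitted, the group named first minus the other. Log2 CPM used a prior count of 2. The 9 genes and 16 lists were chosen with earlier results of these data known. All 9 are named in every comparison; of a list, up to 2 genes per direction with the largest change past the threshold, or its 2 smallest p, could be named.

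Replicate numbers are not known to pair the short-term samples, where libraries of the same number had correlations of deviations of -0.359 to 0.389. Animal codes in the files' names were taken as pairs in the long term; deviations correlated above 0.1 in 6 of 10 such pairs (-0.262 to 0.382).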

Additional observations from a re-analysis of the deposited data

Results flagged for a closer look

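Of 54 combinations of gene and group, those with 4 to 10 libraries were searched for a library far from the others, and 5 were found, where chance gives about 1 in 20. In the injury group of the short term, replicate 3 stood apart for VCAN (81.9 CPM) and for POSTN (403.1 CPM), above the other 3 libraries of its group. In the long term, repair replicate 1 stood apart for SPARC (720.0 CPM, the highest of its group), gel replicate 1 for FAP (1.46 CPM, the lowest of its group) and uninjured replicate 7 for SPARC (205.2 CPM, the lowest of its group). Injury replicate 3 and gel replicate 1 are also among the 4 libraries least like their own groups over all genes.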

How the results depend on the processing

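Of the 9 genes, the number called moved by over 1.5 times in 4 comparisons. Repair only against the injury in the short term, 0 in the reported fit, gave 1 with DESeq2, 8 with limma voom, 9 without repair replicate 4 and injury replicate 3, 8 without repair replicate 5 as well (chosen after seeing the data) and 5 with all 34 libraries in one fit. The gel against the injury, 0 as reported, gave 5 with limma voom and, under the same exclusions, 3 and 7. The gel against repair only in the long term, 0 as reported, gave 1 with DESeq2. Long-term repair against uninjured muscle, 2 as reported, gave 1 with no filter on low counts and 0 with limma voom, with all 34 libraries in one fit, with only the 2 groups, with the replicate block by title number, with the replicate block by animal code and, as an alternative chosen after seeing the data, with no block over the same 5 animals. Leaving out 1 library gave 0 to 2 there, 7 to 9 for repair only and 6 to 9 for the gel between terms, and 0 to 0 in the other 6 comparisons.

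Signs of the following differences turned; the cause was not tested. For the gel against the injury, THBS1 was 0.90 with limma voom and 1.08 and 1.09 under the same exclusions. For the long-term gel against uninjured muscle, FN1 was 0.08 with limma voom, 0.09 with the animal block and 0.02 over the same animals without it; THBS2 was -0.02 with the number block; SPARC was -0.17 with limma voom, -0.04 with the number block and -0.18 without gel replicate 1; and FAP was -0.01 with the animal block. For the difference between terms, TNC was -1.15 with limma voom, THBS1 0.31 without repair replicate 4, injury replicate 3 and gel replicate 1, FN1 -0.06 and TNC -0.66 without repair replicate 5 as well, and CTHRC1 -0.08 with the number block. With 1 library left out, ranges that crossed 0 were -1.51 to 0.03 (POSTN, gel against repair, short term) and -0.35 to 1.08 (THBS1, gel against injury). For the long-term gel against uninjured muscle they were -0.12 to 0.26 (FAP), -0.18 to 0.02 (FN1) and -0.18 to 0.14 (SPARC). For the difference between terms they were -0.39 to 1.38 (CTHRC1), -0.53 to 0.59 (FAP), -0.46 to 1.15 (FN1), -1.43 to 0.14 (POSTN), -1.88 to 0.56 (THBS1) and -1.09 to 2.02 (TNC).

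Over all genes edgeR called 0 in each short-term comparison, where DESeq2 called 127 (gel against repair), 231 (repair against injury) and 788 (gel against injury), limma voom 3, 4692 and 3776, and edgeR under the same exclusions 13, 4556 and 2577, then 3, 3576 and 3351. For long-term repair against uninjured muscle edgeR called 117, where DESeq2 called 234, limma voom 12, one fit over all 34 libraries 9, the 2 groups alone 63 and each replicate block 0. For the long-term gel DESeq2 called 7 against repair only and 17 against uninjured muscle, where edgeR called 0 and 1. The replicate numbers are not known to pair the short-term samples, and the block changed no call of the 9 genes there. Between terms the block by number left 8 of 9 called under both treatments. Long-term depth limits CTHRC1.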
